A study of Mus musculus with 4 samples.

Results

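Fbxl7, Heatr5a, Lrrk1 and Tenm4 are 4 mouse genes that were chosen by their values in these arrays, because at least 1 probe of each was dimmer with follistatin than without it. All their non-control probes were taken by gene name, 14 of 41174 probes for 4 of 21080 named genes. The array annotation lists Tenm4 under its older name, Odz4. The samples were C2C12 cells, an established line of mouse myoblasts that fuse into myotubes when serum is reduced, after 6 days of differentiation. Each of 4 two-colour arrays held RNA of a culture given 200 ng/ml recombinant human follistatin 288 every 24 h, labelled with Cy3, and RNA of an untreated culture, labelled with Cy5. Follistatin binds and neutralises activins and myostatin. No allele or transgene separated the groups, and C2C12 is 1 clonal line. The labels call the 4 arrays biological replicates and dye swaps, but follistatin carried Cy3 on every one, so an effect of the dye and an effect of follistatin cannot be told apart. They also give different serum levels, 2% horse serum in the growth protocol and 10% in the source names.

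The probes are 60-base oligonucleotides, and every value below is log2 of the follistatin signal over the untreated signal on 1 array, so a negative value means less signal with follistatin. Because these ratios chose the genes, they are given as a description, with no test of the 4 genes. In a bulk extract, fewer cells that hold a transcript and less of it per cell cannot be told apart.

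Fbxl7 encodes an F-box protein with leucine-rich repeats. Such proteins pick the substrates of SCF ubiquitin ligases, which are built on Skp1, Cul1 and Rbx1. Heatr5a encodes a HEAT-repeat protein, a paralogue of Heatr5b, which works with the AP-1 adaptor in vesicle traffic between the trans-Golgi network and endosomes. Lrrk1 encodes a large leucine-rich repeat kinase, the paralogue of Lrrk2, which acts in endosomal traffic of growth factor receptors and in bone resorption by osteoclasts. Tenm4 encodes a teneurin, a large transmembrane protein of the cell surface that binds latrophilin receptors and is known for roles in the differentiation of oligodendrocytes and in motor control.

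The probes differ in the kind of transcript they were designed on. Of the 14, 7 were named for a RefSeq mRNA (names beginning NM), 4 for a full-length cDNA clone (AK) and 3 for an Ensembl transcript (ENSMUST). The sequences of the lowest probe of each gene and of a RefSeq comparator for Heatr5a and Lrrk1 are shown because the ratio depended on which probe was read. Each is printed as on the array, 5′ to 3′, after the transcript name and the probe's position in that transcript; capitals mark stretches of at least 4 successive A or T bases.
Fbxl7 AK051849, 970: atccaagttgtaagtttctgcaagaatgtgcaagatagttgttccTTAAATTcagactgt
Heatr5a AK080280, 729: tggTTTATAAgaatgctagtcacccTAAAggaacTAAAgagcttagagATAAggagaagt
Heatr5a NM_177171, 3718: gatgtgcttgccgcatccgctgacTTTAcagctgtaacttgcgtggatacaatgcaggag
Lrrk1 ENSMUST00000154893, 1468: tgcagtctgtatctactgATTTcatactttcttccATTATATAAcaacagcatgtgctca
Lrrk1 NM_146191, 3301: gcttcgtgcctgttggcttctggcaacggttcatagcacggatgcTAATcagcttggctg
Tenm4 NM_011858, 8600: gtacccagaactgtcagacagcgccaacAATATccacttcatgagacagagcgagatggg
The capitals cover 7 bases of the Fbxl7 clone probe, 19 of the Heatr5a clone probe and 13 of the Lrrk1 Ensembl probe. They cover 4 bases of each printed RefSeq comparator and 5 of the Tenm4 probe. The RefSeq probes nearer the transcript end, which are not printed, hold more: 13 bases for Heatr5a NM_177171 at 7495 and 29 for Lrrk1 NM_146191 at 7344. The RefSeq probe of Fbxl7, NM_176959 at 4548, holds 20, more than the 7 of the printed Fbxl7 clone probe. Tenm4 NM_011858 at 10445 holds 14. Over the tested probes of the array the median was 17 bases for cDNA clones, 13 for Ensembl transcripts and 11 for RefSeq mRNAs. The A/T share was 65.0% for Fbxl7 AK051849 and for Lrrk1 ENSMUST00000154893. It was also 65.0% for the RefSeq probes Fbxl7 NM_176959 and Lrrk1 NM_146191 at 7344, and 48.3% for Tenm4 NM_011858 at 8600.

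Of the 14 probes, 13 were well above background in all 8 channels and could be compared. The mean ratio was below 0 for 10 of the 13 and at least 1.6-fold lower, the fold minimum of the study, for 7. Across the array 9.33% of 27017 tested probes had a mean at least 1.6-fold lower. The ratio was negative on all 4 arrays for 6 of the 13, as it was for 14.5% of all probes. It was at least 1.6-fold lower on each array for 5, against 1.07% of all probes. For 6, every follistatin signal lay below every untreated signal, which held for 6.76% of all probes. The genes were chosen on this contrast, so nothing is read from these shares. In limma's test of the ratio against 0, with Benjamini-Hochberg adjustment over all 27017 probes, 2 probes were lower at an adjusted p under 0.05 (0.0074%) and none was higher. They measured Olfr1299 and Ces3b, both with an adjusted p of 0.0111 and both above background in only 4 of 8 channels, and no probe of the 4 genes was called. Both calls were lost when any single replicate was left out, with replicates 2 and 3 averaged and with normexp and loess. In these limma fits the smallest adjusted p lay between 0.0634 and 0.184. A stricter filter, which asked for all 8 channels above background, left both probes out before testing, and no other probe was called.

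**Figure D1:**
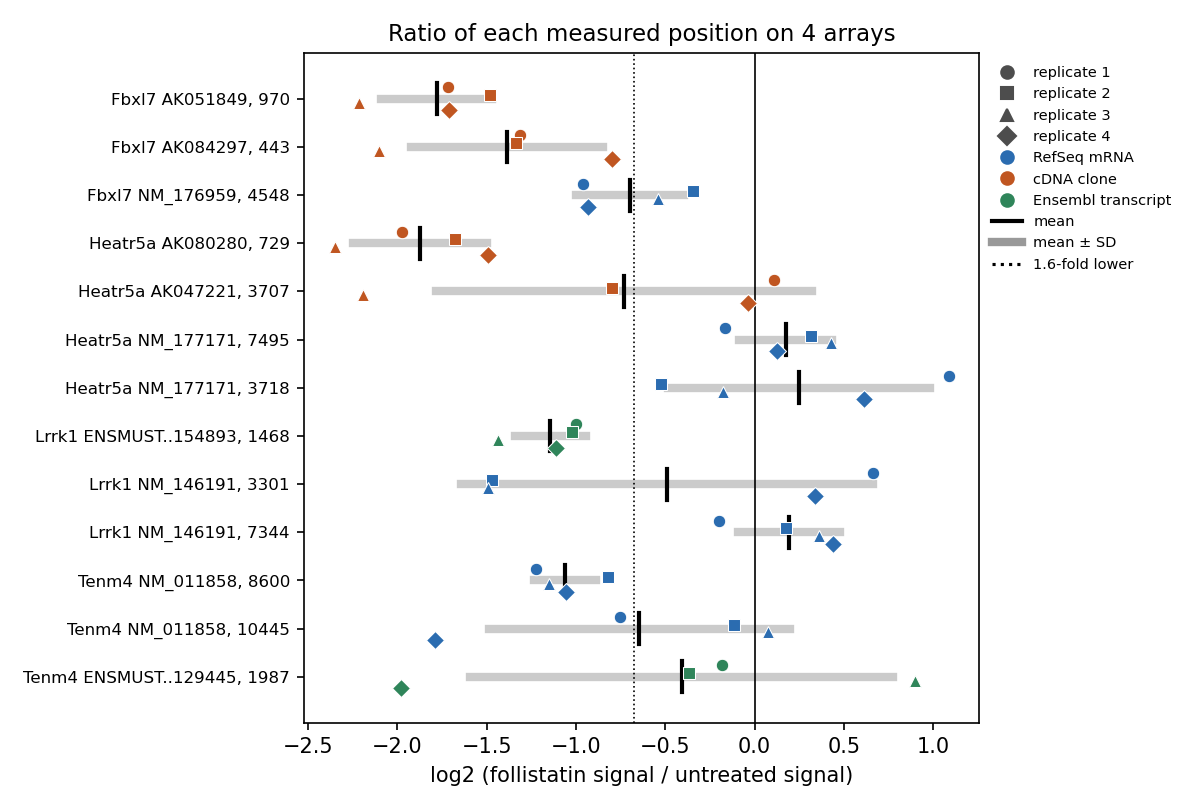
Log2 ratio of follistatin over untreated signal (horizontal axis) for the 13 probes above background, 1 symbol per array, with the mean (black bar) and mean ± SD (grey); labels give the gene, the transcript name and the position in it. Fbxl7 lies left of 0 on every array for each of its 3 probes, while the NM_177171 probes of Heatr5a and the NM_146191 probes of Lrrk1 have symbols on both sides of 0.

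Fbxl7 was the only one of the 4 genes whose probes were all lower on every array. Its probe for the clone AK051849 lies on the minus strand of chromosome 15 at chr15:26718899-26718958 (mm9). There the untreated signals were 11864, 8686, 7420 and 7431 in replicates 1 to 4, and the follistatin signals were 3613, 3116, 1596 and 2273. The highest follistatin value stayed under the lowest untreated value. The log2 ratios were -1.72, -1.48, -2.22 and -1.71, a mean of -1.78 ± 0.31 (SD, n = 4), or 3.43-fold lower. The probe for a second clone, AK084297, lies at chr15:26718308-26718367, 531 bases away, and gave -1.32, -1.34, -2.10 and -0.80, with a mean of -1.39 ± 0.54 (SD, n = 4). The neighbouring clone probes therefore both gave their lowest ratio in replicate 3.

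The Fbxl7 mRNA probe was lower by less. It reads NM_176959 at position 4548, at chr15:26470222-26470281, about 249 kb downstream of the AK051849 probe in the direction of transcription. Its ratios were -0.96, -0.35, -0.54 and -0.93, with a mean of -0.70 ± 0.30 (SD, n = 4), or 1.62-fold lower. The AK051849 probe was lower than this mRNA probe on each array, with differences between -0.75 and -1.68 and a mean of -1.08. The untreated signals of the mRNA probe, 5722, 4087, 3807 and 3356, lay above every follistatin signal, which were 2935, 3213, 2619 and 1758. Probes in both regions of the locus thus gave lower signal with follistatin. Only the NM_176959 probe is listed with a RefSeq mRNA, and its mean was -0.65 with normexp and loess. Whether the clone probes read the same transcript was not tested.

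Heatr5a held the lowest probe of the set and also probes with means above 0. The probe for clone AK080280, at chr12:53071505-53071564 on the minus strand, had untreated signals of 12401, 8084, 7862 and 6958 and follistatin signals of 3158, 2525, 1543 and 2476. No signals of the groups overlapped. The ratios were -1.97, -1.68, -2.35 and -1.49, with a mean of -1.87 ± 0.37 (SD, n = 4), or 3.66-fold lower.

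The Heatr5a mRNA, NM_177171, is measured by a pair of probes further downstream. At position 7495, chr12:52977066-52977125, untreated signals were 6180, 4187, 3969 and 4453 and follistatin signals 5502, 5204, 5341 and 4862. The groups overlapped, and the ratios of -0.17, 0.31, 0.43 and 0.13 had a mean of 0.18 ± 0.26 (SD, n = 4). At position 3718 the ratios were 1.09, -0.53, -0.18 and 0.61, a mean of 0.25 ± 0.73 (SD, n = 4). This probe is mapped to chr12:53000241-53006329, 6089 bases for an oligonucleotide of 60, which is the span of a probe across a splice junction. It was dim, between percentiles 40.4 and 50.1 of its channels, and its mean was -0.03 without replicate 1. Between AK080280 and NM_177171 at 7495 the ratio differed by -1.81, -1.99, -2.78 and -1.62 on the 4 arrays, a mean of -2.05. The probe for clone AK047221, at chr12:53037430-53037489 between the other positions, was also dim, between percentiles 36.0 and 52.4 of its channels. It gave 0.11, -0.80, -2.20 and -0.04, a mean of -0.73 ± 1.05 (SD, n = 4), with replicate 3 far below the rest. Without replicate 3 that mean was -0.24, and with normexp background correction and loess it was -0.26. Which Heatr5a probe counted as the brightest, and with it the sign for the gene, changed with that processing: it was NM_177171 at 7495 by processed signal and AK080280 after normexp and loess.

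**Figure D2:**
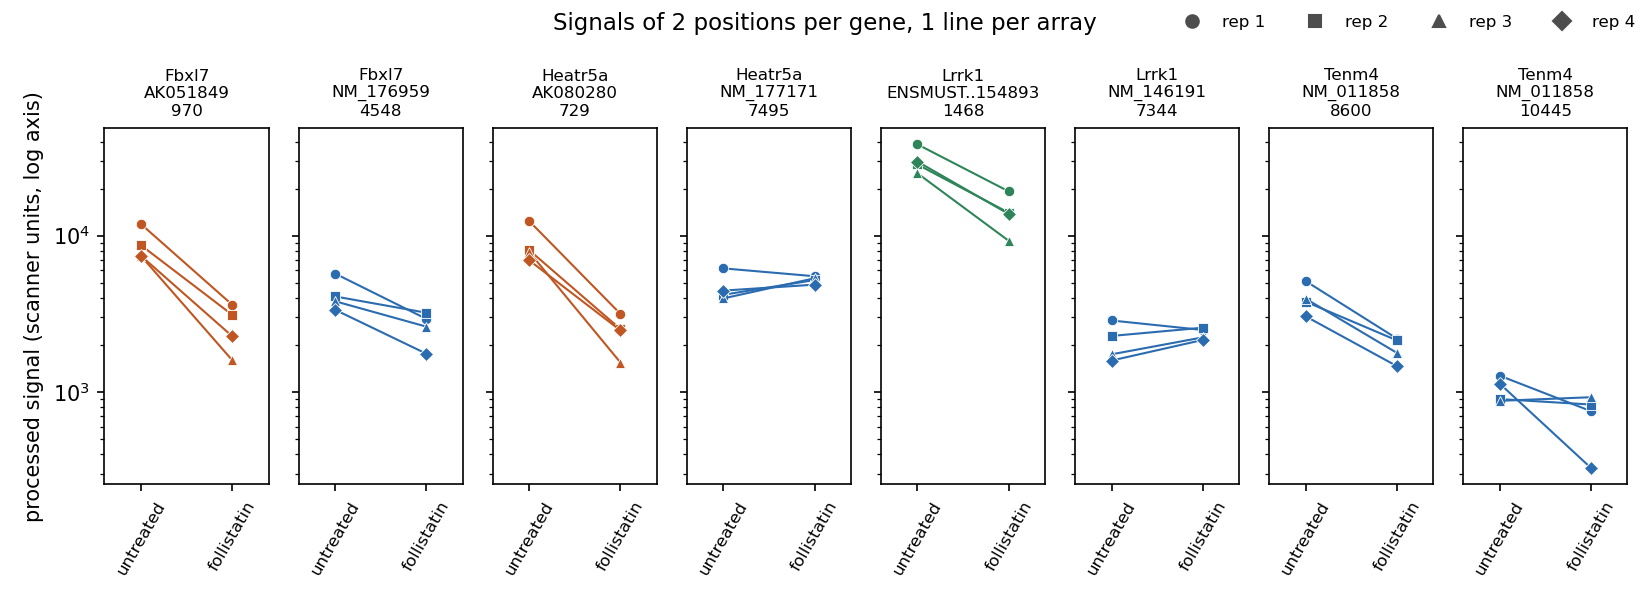
Processed signal on a log axis in the untreated and follistatin channel for 2 probes of each gene, 1 line per array. The lines for Fbxl7 AK051849, Heatr5a AK080280, Lrrk1 ENSMUST00000154893 and Tenm4 NM_011858 at 8600 slope down on all 4 arrays, and those for Heatr5a NM_177171 at 7495 and Lrrk1 NM_146191 at 7344 run nearly level.

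Lrrk1 showed the same kind of split. The Ensembl transcript probe ENSMUST00000154893, at chr7:73486587-73486646 on the minus strand, was among the brightest of the array, between percentiles 93.2 and 98.1 of its channels. Untreated signals were 38403, 28548, 25083 and 29795, and follistatin signals 19205, 14024, 9278 and 13767, with no overlap. The ratios of -1.0, -1.03, -1.43 and -1.11 gave a mean of -1.14 ± 0.20 (SD, n = 4), or 2.21-fold lower.

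The Lrrk1 mRNA probes had other patterns. At position 7344 of NM_146191, chr7:73403683-73403742, the ratios were -0.20, 0.18, 0.36 and 0.44, a mean of 0.19 ± 0.29 (SD, n = 4), and the groups overlapped. At position 3301, chr7:73430135-73430194, replicates 2 and 3 were low, at -1.47 and -1.49, and replicates 1 and 4 were high, at 0.66 and 0.34. Their mean of -0.49 ± 1.15 (SD, n = 4) is smaller than its spread, and it was -0.16 without replicate 3 and -0.87 without replicate 1. Replicates 2 and 3 also resembled each other over all tested probes (Pearson r 0.82), whereas the other pairs of arrays had an r of 0.038 to 0.32. With these 2 arrays averaged and counted as 1, the mean at position 3301 was -0.16. The nearest gene on either side of Lrrk1 in the RefSeq table was measured: Chsy1, a chondroitin synthase, had a mean of -0.29 ± 0.18 (SD, n = 4), and Aldh1a3, which makes retinoic acid, 0.23 ± 0.49 (SD, n = 4).

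Tenm4 differed from the other 3 genes in that its lowest probe reads a RefSeq mRNA. At position 8600 of NM_011858, chr7:104055032-104055091 on the plus strand, untreated signals were 5126, 3786, 3956 and 3050 and follistatin signals 2197, 2139, 1779 and 1464. The groups did not overlap. The ratios were -1.22, -0.82, -1.15 and -1.06, a mean of -1.06 ± 0.17 (SD, n = 4), the smallest spread of the 13 probes, or 2.09-fold lower.

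The other Tenm4 probes varied between arrays. The probe at position 10445 of the same mRNA, chr7:104056877-104056936, lies only 1785 bases further on, yet gave -0.75, -0.12, 0.08 and -1.79, a mean of -0.65 ± 0.84 (SD, n = 4). Leaving out replicate 4, the array on the other slide, moved this mean to -0.26. The Ensembl transcript ENSMUST00000129445, at chr7:103586937-103586996, gave -0.18, -0.37, 0.90 and -1.98, a mean of -0.41 ± 1.19 (SD, n = 4), which became 0.11 without replicate 4 and -0.16 with normexp and loess. Both probes had their lowest ratio in replicate 4. The Ensembl probe was the dimmer of them, between percentiles 45.0 and 62.6 of its channels. The remaining Tenm4 probe, ENSMUST00000130299 at chr7:103946134-103946193, was not well above background in any of the 8 channels.

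By kind of transcript, all 4 clone probes of the 4 genes had a mean at least 1.6-fold lower, and 3 were that low on each array. Of the 2 measured Ensembl probes 1 was, by either count. Of the 7 RefSeq probes 2 had such a mean, Fbxl7 NM_176959 and Tenm4 NM_011858 at 8600, and 1 was that low on each array. Over the whole array such means were found for 39.1% of the clone probes, 18.9% of the Ensembl probes and 4.01% of the RefSeq probes. On each array they were found for 6.24%, 2.09% and 0.204%. The median ratio was -0.50 for 2917 clone probes, -0.13 for 1578 Ensembl probes and 0.068 for 20142 RefSeq probes. The clone median was negative on every array, at -0.30, -0.38, -0.82 and -0.37, and lowest in replicate 3, where Fbxl7 AK051849, Heatr5a AK080280 and Lrrk1 ENSMUST00000154893 also had their lowest ratios. With normexp and loess the clone median minus the RefSeq median was -0.20 in place of -0.56, and 14.7% of the clone probes had a mean at least 1.6-fold lower.

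**Figure D3:**
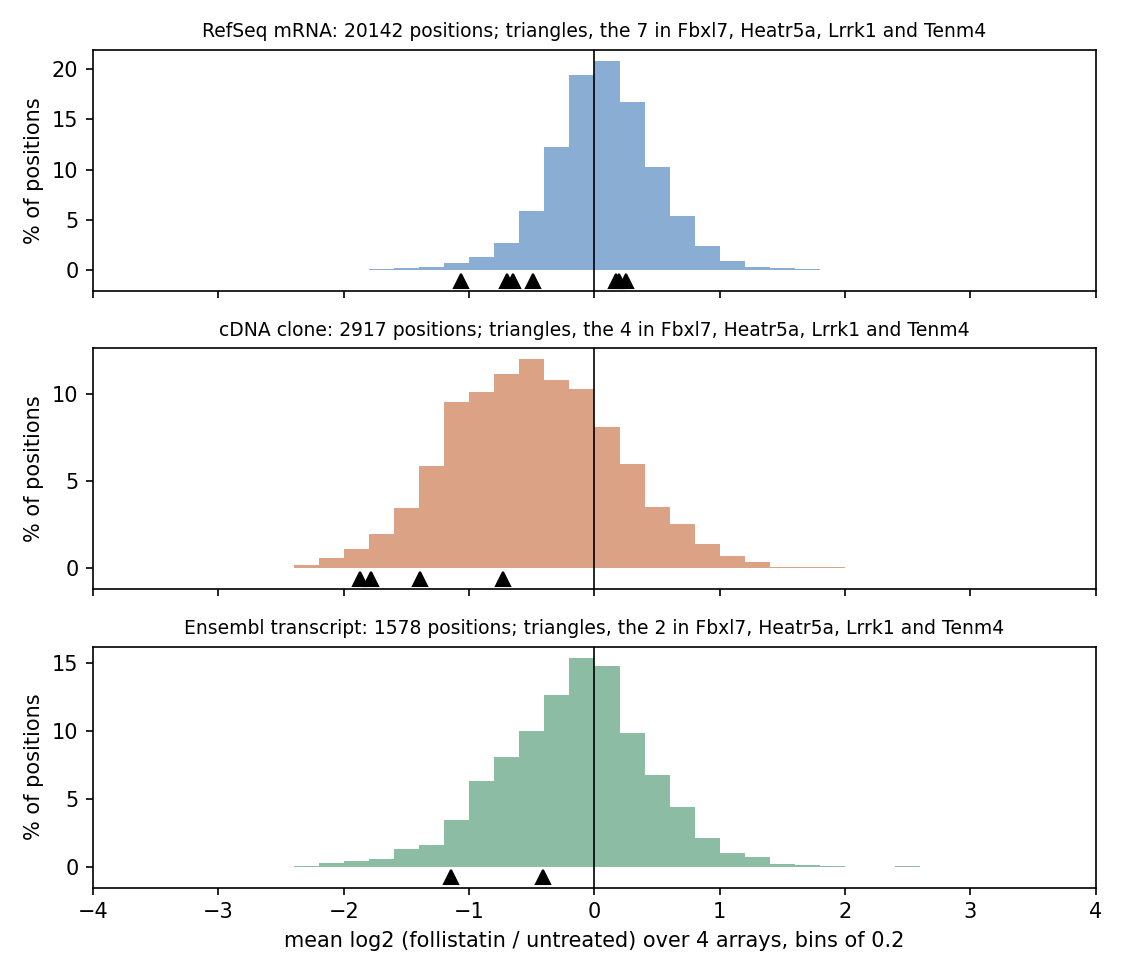
Percentage of tested probes (vertical axis) by mean log2 ratio over the 4 arrays in bins of 0.2, for RefSeq mRNA, cDNA clone and Ensembl transcript probes; triangles mark the 13 probes of Fbxl7, Heatr5a, Lrrk1 and Tenm4. The clone distribution is centred at -0.50 and the RefSeq distribution at 0.068.

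The difference between clone and RefSeq probes varied with base composition and with signal. The clone median minus the RefSeq median was -0.25 among probes of at most 55% A/T, -0.55 from 56.7% to 58.3%, -0.58 from 60% to 63.3% and -0.73 from 65.0% upward. Across 4 equally filled ranges of signal, from dim to bright, it was -0.46, -0.69, -0.82 and -0.27. Fbxl7 AK051849 and Heatr5a AK080280 belong to the brightest range, and have 65.0% and 63.3% A/T. Whether base composition or signal had a part in the ratios of the 4 genes was not tested.

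Within genes the same comparison was made for 1806 genes that had both a RefSeq probe and a clone or Ensembl probe. The clone or Ensembl ratio was lower in 71.9% of them, and the median difference over all 1806 genes was -0.37. The difference was -1.51 for Heatr5a, lower than in all but 6.09% of the genes, -0.99 for Lrrk1, -0.89 for Fbxl7 and 0.45 for Tenm4. Lrrk1 stood at percentile 20.3 and Fbxl7 at percentile 25.7. Tenm4 stood at percentile 90.0, its Ensembl probe lying above the mean of its RefSeq probes on 3 of 4 arrays.

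The place of the probe along the gene was compared as well. In Fbxl7, Heatr5a, Lrrk1 and Tenm4 the clone and Ensembl probes all lie upstream of every RefSeq probe of the gene, toward its 5′ side, by a mean of 248, 64.3, 69.7 and 469 kb. Of 1744 genes whose probes could be placed on 1 strand, 994 had this order, and there the median difference was -0.66, negative in 83.0%. In the 498 genes with the opposite order the median was 0.017, negative in 49.2%. With normexp and loess these medians were -0.31, negative in 80.2%, and 0.012, while the differences were -1.11 for Heatr5a, -0.98 for Lrrk1, -0.81 for Fbxl7 and 0.65 for Tenm4. The upstream median was -0.29, -0.65, -1.12 and -0.42 on the 4 arrays, while the downstream median was -0.20, 0.11, 0.15 and 0.047. Measured against the upstream genes alone, Heatr5a stood at percentile 9.66, Lrrk1 at 30.8, Fbxl7 at 37.9 and Tenm4 at 95.6.

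**Figure D4:**
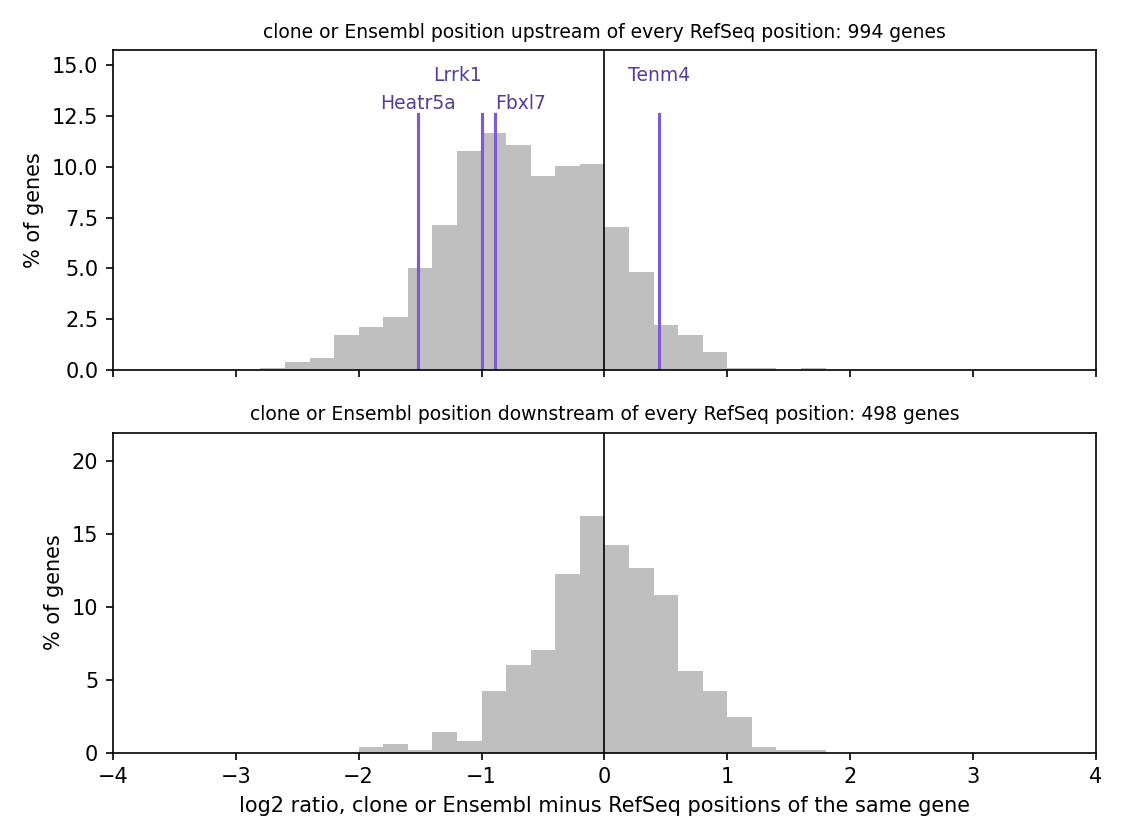
Percentage of genes (vertical axis) by the log2 ratio of their clone or Ensembl probes minus that of their RefSeq probes, in bins of 0.2, for 994 genes with the clone or Ensembl probe upstream (top) and 498 with it downstream (bottom); purple lines mark Heatr5a, Lrrk1, Fbxl7 and Tenm4. The upper distribution is centred at -0.66 and the lower at 0.017.

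Between RefSeq probes of the same gene the median difference by position was near 0. In 4926 genes with at least 2 of them, the upstream probe minus the downstream probe had a median of -0.0055 and was negative in 50.5%. Heatr5a gave 0.074 by this measure, near the middle. Lrrk1, at -0.68, stood at percentile 11.9 and Tenm4, at -0.42, at percentile 21.4. The compared RefSeq probes lay closer together, a median of 3.20 kb apart. Clone or Ensembl and RefSeq probes lay a median of 18.0 kb apart in the upstream genes and 3.62 kb in the downstream genes. Whether distance had a part in these differences was not tested.

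Where the clone and Ensembl probes fall relative to exons and introns was not analysed here, because no annotation of the mm9 build was used. The RefSeq gene table of GRCm38.p6, used only for names and for which genes adjoin or lie inside each other, places other genes inside the loci, among them the long noncoding RNAs Gm52205 and Gm52206 in Fbxl7, Mir7057 and Gm45989 in Lrrk1 and the microRNA gene Mir708 in Tenm4. None of these had a probe under that name.

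Genes whose pattern over the 4 arrays was most like each member were found by the root mean square difference of the log2 ratios. They are the closest of 21341 probes compared each time. A close probe must have a similar mean ratio. Means at least 1.6-fold lower were found for 39.1% of the clone probes and 4.01% of the RefSeq probes. Nothing is therefore read from the kinds of probe given below. For Fbxl7 AK051849 they were Atl3, an endoplasmic reticulum membrane GTPase, at 0.23, Itgav, the integrin alpha V subunit, at 0.31, and 2310035P21Rik at 0.34, each read by a clone probe. For Heatr5a AK080280, a reference chosen after its values were seen, they were Zfp91 at 0.29, Itgav at 0.29 and Atl3 at 0.33, again by clone probes. The Heatr5a mRNA at 7495 was closest to Fam72a at 0.024, Zfp422 at 0.034 and Agps at 0.039, all by RefSeq mRNA probes near 0. Lrrk1 ENSMUST00000154893 was closest to Gdap10 at 0.114, Cd70 at 0.115 and Mtss1 at 0.121. For Tenm4 at 8600 the closest were A430106A12Rik at 0.146, Sox11, a transcription factor of progenitor cells, at 0.157 and Gm19913 at 0.160. In these last sets the kinds of probe were mixed. Cd70 and Sox11 were read by RefSeq mRNA probes, Mtss1 and A430106A12Rik by clone probes, and Gdap10 and Gm19913 by probes of other kinds.

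The families and known partners of the 4 proteins, each gene read by its brightest probe, showed no called change. Only 2 of all 14936 named genes were called, so the absence of calls says little about these lists. Of 19 measured F-box genes with leucine-rich repeats besides Fbxl7, none passed limma's adjusted threshold. At an unadjusted p under 0.05, 1 was higher and 2 were lower, and their median ratio was 0.061. The lower ones were Fbxl6, at -0.74 ± 0.56 (SD, n = 4; limma's adjusted p = 0.178), by a RefSeq mRNA probe, and Fbxl18, by a clone probe, at -0.67 ± 0.53 (SD, n = 4; limma's adjusted p = 0.193). Over all 14936 named genes, 9.13% were higher and 7.58% lower at that unadjusted p, with a median of 0.016. Of the 5 core SCF genes none was called, 2 were higher at an unadjusted p under 0.05 and the median was 0.40, with 3 means above 0 and 2 below. Skp1, the adaptor that holds the F-box protein, had a mean of 0.53 ± 0.36 (SD, n = 4; limma's adjusted p = 0.211), and Nedd8, which activates the cullin, 0.40 ± 0.15 (SD, n = 4; limma's adjusted p = 0.239). The other 3, named after their values were seen, were the scaffold Cul1 at 0.40 ± 0.41, the RING subunit Rbx1 at -0.51 ± 0.45 and the exchange factor Cand1 at -0.14 ± 0.35 (SD, n = 4 each). Each of them had 3 tested probes, and their means lay on both sides of 0. They ranged from -0.29 to 0.42 for Cul1, from -0.51 to 0.14 for Rbx1 and from -0.23 to 0.19 for Cand1. The reported Fbxl7 substrates gave -0.029 ± 0.36 for the mitotic kinase Aurka and 0.19 ± 0.55 for survivin, Birc5 (SD, n = 4 each).

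Of 7 measured teneurins and teneurin partners none was called or passed the unadjusted threshold. Their median was -0.15, and 0.18 without replicate 3 or 0.14 without replicate 4, so its sign rested on single arrays. Tenm3 had a mean of 0.45 ± 0.62, and its 3 probes ranged from 0.14 to 0.45. Tenm2 had -0.36 ± 1.47 by the 1 probe above background of its 3, and no Tenm1 probe was tested. The latrophilins Adgrl1 and Adgrl2, receptors for teneurins, stood at 0.46 ± 0.53 and 0.28 ± 0.10 (SD, n = 4 each). The 4 tested probes of Adgrl1 ranged from 0.068 to 0.46.

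The paralogues of Lrrk1 and Heatr5a had mean ratios above 0. Lrrk2 stood at 0.40 ± 0.28 (SD, n = 4) and Heatr5b at 0.62 ± 0.21 (SD, n = 4; limma's adjusted p = 0.142) by its brightest probe, with its 3 probes ranging from 0.063 to 0.62. Of 8 genes of the Lrrk list, none was called and 1 was higher at an unadjusted p under 0.05, with a median of 0.18. That gene was Cdk1, the mitotic kinase, at 0.59 ± 0.30 (SD, n = 4; limma's adjusted p = 0.166), while Rab7a, a late endosome GTPase, had 0.42 ± 0.28 (SD, n = 4). Of 10 Heatr5 and AP-1 adaptor genes none was called, 1 was higher unadjusted, Heatr5b itself, and the median was 0.12. Ap1s3, an AP-1 subunit, had 0.55 ± 0.85 (SD, n = 4).

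The cells carried the markers of differentiating muscle: 10 of 10 listed genes, among them Myog and Ckm, were above background in every channel. Of the other lists, 0 of 4 adipocyte, 1 of 4 endothelial, 1 of 3 blood, 2 of 4 epithelial and 1 of 4 neural markers were. Those above background in every channel were Tek (endothelial), Cd68 (blood), Cdh1 and Krt8 (epithelial) and Tubb3 (neural). Adipoq, Pecam1, Ptprc and Epcam were above background in no channel. Between 61.1% and 69.4% of spots in a channel were well above background and none was saturated.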

How the data were processed

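Intensities of 4 two-colour Agilent whole mouse genome arrays (60-base probes, mm9 coordinates per the file headers) were read as the processed Cy3 and Cy5 signals deposited by the authors. Those signals are background-subtracted and dye-normalized by Agilent Feature Extraction, version 10.7.3.1 in the headers of replicates 1 to 3, on slide 1, and 10.10.1.1 in that of replicate 4, on slide 2; the submitters' processing notes name 10.7.3.1. The log10 ratio deposited by the authors was not used for the values. The log2 values of the authors' deposited value table had an r of 1.00 with the log2 ratio of processed signals on each array. Over tested probes the median absolute difference was between 3.03e-07 and 3.10e-07 per array, and the largest was 0.40. These differences fix the scale and direction of the table. The median log2 ratio over tested probes was between -0.018 and 0.030 per array.

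Here log2 of Cy3 over Cy5 was taken for 43379 non-control of 45018 spots, outlier-flagged spots were left out, and spots of a probe were averaged to 41174 probes. Testing was limited to the 27017 probes that the scanner software called well above background on 3 or more of the 4 arrays, counted within either channel. Ratios were tested against 0 with limma 3.58.1 in R 4.3.3, with Benjamini-Hochberg adjustment and a threshold of 0.05; the fit was tested on simulated data. The alternatives were normexp (offset 50) with loess on median signals, median centring, the value table, flagged spots kept, single arrays left out, replicates 2 and 3 averaged, slide as a random block, other filters, 1 probe per gene and the methods' t-test. The number of arrays limits the precision. The labels do not say whether the replicates came from separate cultures beyond calling them biological. The p-values refer only to these samples, set each mean against the spread between arrays and treat the 4 arrays as independent. Replicates 2 and 3 had a Pearson r of 0.82 over tested probes, and the other pairs 0.038 to 0.32.

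The 4 genes, the lists and the tests were chosen with earlier results of these data known. The text names every probe of the 4 genes and, per list, the 2 genes of smallest unadjusted p by the brightest probe plus Heatr5b, Lrrk2, Tenm1 to Tenm3, Aurka and Birc5. It also names the 3 genes of most similar ratios per gene, among probes called above background in all 8 channels, and measured RefSeq neighbours. The comparisons by kind and place of transcript were added after the values were seen. All 4 RefSeq names of the 7 mRNA probes were found in the RefSeq table.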

Additional observations from a re-analysis of the deposited data

How the results depend on the processing

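The lowest probes were Fbxl7 AK051849, Heatr5a AK080280, Lrrk1 ENSMUST00000154893 and Tenm4 NM_011858 at 8600. Each kept its direction and stayed within 1 SD of its mean under every alternative run on the ratios. Most alternatives could not have given another outcome. All 4 ratios of each probe were negative, and leaving out 1 array of 4 cannot move a mean by 1 SD. The value table, kept flags and median centring hardly changed the ratios. With normexp and loess, which reprocessed the signals, the means were -1.693, -1.809, -1.105 and -1.042. In place of the 2 probes called across the array, 0 were called with normexp and loess, with replicates 2 and 3 averaged and on slide 1 only. The count was also 0 when any single replicate was left out. With the stricter filter on dim probes it was 0 as well, but that filter left both probes out before testing. The same 2 were called under the other alternatives, the slide as a random block among them, except that the methods' t-test called 1 of them and Ttyh1, higher. At an unadjusted p under 0.05 limma called 5605 probes and, with normexp and loess, 5159. The clone median minus the RefSeq median, -0.56, was -0.20 with normexp and loess and between -0.65 and -0.42 without single replicates; the cause was not tested. That comparison and its alternatives were chosen after seeing the data. With normexp and loess 5 probes of the 4 genes, in place of 7, had a mean at least 1.6-fold lower. No listed partner or family gene was called under any alternative. At most 2 probes of the whole array were called under any of them, so that absence says little about the lists. The teneurin list median was -0.019 with normexp and loess and 0.027 with replicates 2 and 3 averaged. Median centring leaves the likeness between probes unchanged by construction. The level percentile of Heatr5a NM_177171 at 7495 was 86.9 from raw median signals. The test of the ratio against 0 is itself the paired comparison, because each array pairs its 2 samples in 1 ratio. The labels form a single group, so no further pairing was possible.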
